A study of Macaca fascicularis with 7 samples.

Results

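The 10 regulators of the unfolded protein response described here are ERN1, EIF2AK3, ATF6, XBP1, ATF4, DDIT3, PPP1R15A, HERPUD1, SEL1L and EDEM1. They were taken by gene name from the 28161 usable rows of a deposited table of read counts per gene, and all 10 were found. The table covers 7 libraries of poly(A)-primed RNA from wild type oocytes of the cynomolgus monkey (Macaca fascicularis). IVM MII oocytes, which had reached metaphase II, the stage at which the egg waits for sperm, in culture, are labelled as treated and gave 3 libraries. IVO MII oocytes, which had reached metaphase II in the animal, and GV oocytes, which still held the germinal vesicle (the intact nucleus of the immature oocyte), are labelled as controls and gave 2 libraries each. The design text asks how expression differs between the 3 kinds of oocyte. Neither the animals' age, nor how many oocytes went into each library, nor whether the libraries stem from different animals is stated in the labels. The p-values therefore measure the spread among these samples alone, and that spread may be technical.

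The unfolded protein response is the signalling network with which a cell answers an excess of unfolded protein in the endoplasmic reticulum (ER). The ER membrane proteins IRE1 (encoded by ERN1), PERK (EIF2AK3) and ATF6 sense the load. IRE1 cuts the XBP1 mRNA so that its spliced form encodes an active transcription factor. PERK phosphorylates the initiation factor eIF2alpha, which lowers protein synthesis but favours translation of ATF4, and ATF6 is cut in the Golgi to release a transcription factor. Targets include DDIT3, which encodes CHOP, PPP1R15A, which encodes the phosphatase subunit GADD34, and the ER-associated degradation genes HERPUD1, SEL1L and EDEM1. A count per gene cannot tell spliced from unspliced XBP1 mRNA, and does not report the translation of ATF4. Transcription is largely silent in the fully grown oocyte and during maturation, when stored mRNAs are deadenylated, lengthened at their tails or degraded, and priming on poly(A) can read a change of tail as a change of count.

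The libraries held 22901970 to 29245733 counts. Levels are in CPM (counts divided by the library's total and put on the usual common scale), adjusted between libraries by TMM (trimmed mean of M values), whose factors were 0.7662 to 0.9095 in IVM MII, 0.8336 and 0.9848 in IVO MII, and 1.423 and 1.382 in GV. A count of 0 allows up to 3 counts, 0.0907 to 0.161 CPM in a library, for counting error only. Of 15 oocyte markers, 14 were found, and each was at 1 CPM or more in every library. Of 17 cumulus and granulosa markers, 16 were found, and their summed level was 137.9 to 246.3 CPM in IVM MII, 102.7 to 122.9 CPM in IVO MII and 33.3 to 36.2 CPM in GV. TNFAIP6, HAS2, FST and FSHR held most of it, while AMH, PTX3 and NR5A1 were at 0 in every library. The 14 markers of stroma, theca and endothelium summed to 74.0 to 90.8 CPM in IVM MII, 92.4 to 127.7 CPM in IVO MII and 1093 to 1220 CPM in GV, of which VWF made up 92.1% in GV, and COL3A1, LUM and TAGLN were at 0 in every library. The 12 blood and immune markers summed to 0.375 to 5.30 CPM in IVM MII, 3.28 and 4.13 CPM in IVO MII and 25.4 and 33.5 CPM in GV, with CSF1R making up 97.9% in GV. The part of these markers in the results was not tested. The labels place the alignments of the GV libraries in another folder than those of all MII libraries, so against GV the folder and the group cannot be told apart. In such libraries fewer cells of a type and less RNA per cell cannot be told apart.

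**Figure D1:**
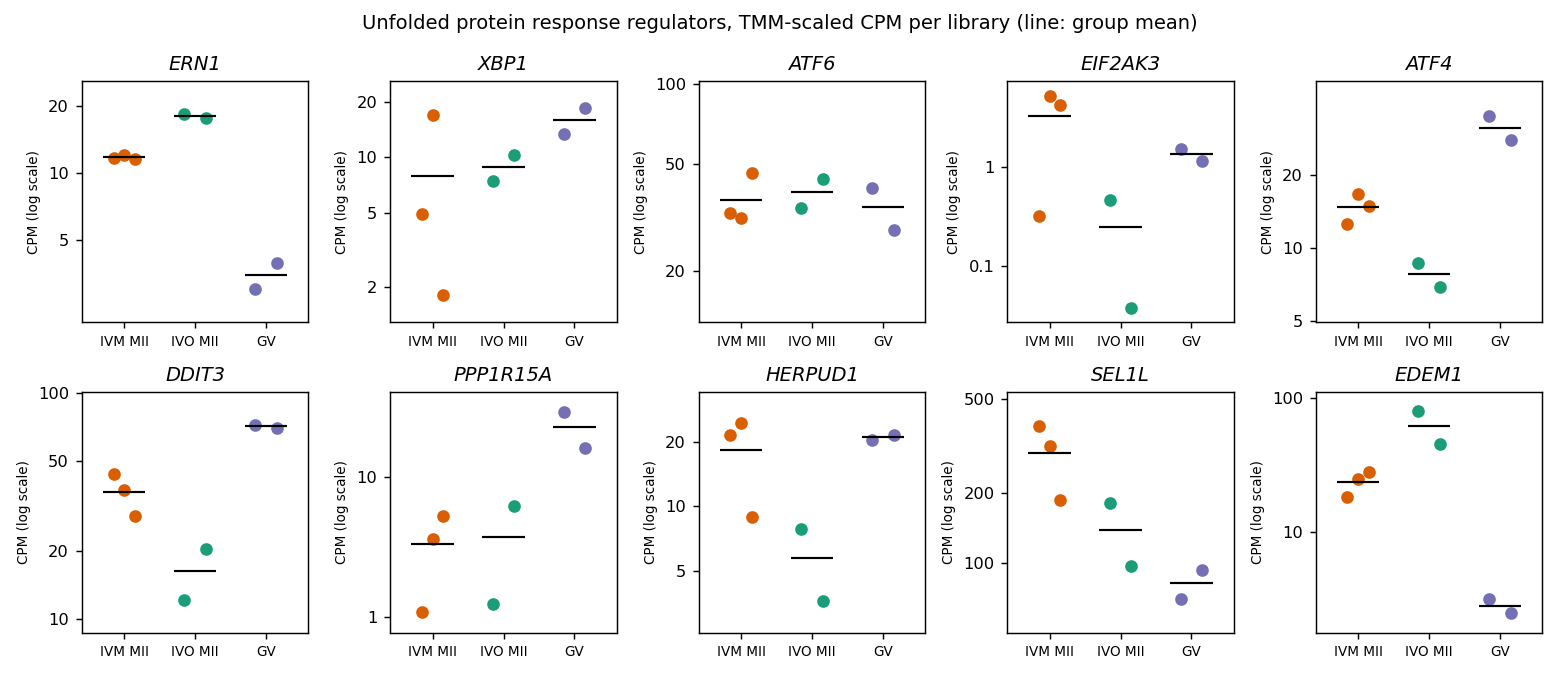
Level of each of the 10 regulators in every library, in TMM-scaled CPM on a log axis, with IVM MII (3 libraries), IVO MII (2) and GV (2) from left to right; points are libraries and lines are group means. ERN1, SEL1L and EDEM1 were lowest in both GV libraries, ATF4, DDIT3 and PPP1R15A were highest in both, and ATF6 overlapped in all groups.

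ERN1, EIF2AK3 and ATF6 encode the sensors, and they did not share a pattern. ERN1 (chromosome 16, bases 61364984 to 61456605 of the deposited table, whose build is not given in the sources used here) had 11.7, 12 and 11.5 CPM in IVM MII, 18.4 and 17.7 CPM in IVO MII, and 3.02 and 3.95 CPM in GV. No groups overlapped, and libraries of 1 MII group differed by no more than 1.04-fold. Against GV, ERN1 rose in IVM MII, where the log2 fold change was 1.75 ± 0.43 (SE; adjusted p = 0.0145 by edgeR), and in IVO MII, where it was 2.37 ± 0.46 (SE; adjusted p = 0.00731 by edgeR). Between IVM and IVO MII the log2 fold change was -0.62 (95% interval -1.53 to 0.28) and was not called. The IVM MII call was lost without GV replicate 1 (edgeR adjusted p = 0.171), without GV replicate 2 (0.0984) and with library totals in place of TMM (0.0937), and the IVO MII call without GV replicate 1 (0.0956) and without GV replicate 2 (0.0621).

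EIF2AK3 (chromosome 13, bases 19738667 to 19818189) was the least abundant member and the most uneven between libraries. It had 6, 122 and 109 counts in IVM MII, 9 and 1 counts in IVO MII, and 50 and 36 counts in GV. In CPM these were 0.322, 5.15 and 4.10 in IVM MII, 0.458 and 0.0385 in IVO MII, and 1.51 and 1.14 in GV. IVM MII replicates 2 and 3 lay above every other library, and replicate 1 lay within the range of IVO MII, so the IVM MII libraries spread over 16-fold. The log2 fold changes were 3.70 for IVM MII against IVO MII (95% interval 0.39 to 7.0, edgeR adjusted p = 0.195), 1.27 for IVM MII against GV and -2.43 for IVO MII against GV, and none was called by edgeR with all libraries. The first became 6.21 without IVO MII replicate 1 and 2.71 without IVO MII replicate 2, and the last -4.95 and -1.53. The second ranged over 0.74 to 1.78 when an IVM MII library was left out. The values without IVO MII replicate 1 rest on replicate 2 alone, whose 1 count lay under the 3 counts allowed for counting error. A further row on the opposite strand, LOC107127080, shared 781 exon bases (16.84%) with EIF2AK3, and the strand setting of the counting is not given in the sources used here, so its reads are uncertain.

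ATF6 (chromosome 1, bases 89770378 to 89971641) stayed closest to level. It had 32.9, 31.5 and 46.3 CPM in IVM MII, 34.4 and 44.1 CPM in IVO MII, and 40.8 and 28.4 CPM in GV, and every pair of groups overlapped. The log2 fold changes were -0.09 for IVM MII against IVO MII (95% interval -0.91 to 0.73), 0.09 for IVM MII against GV (-0.73 to 0.92) and 0.18 for IVO MII against GV (-0.72 to 1.08). These intervals leave room for changes of either sign. With library totals in place of TMM both values against GV turned negative, at -0.62 and -0.43, and remained uncalled.

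XBP1, the transcription factor gene downstream of IRE1 (chromosome 10, bases 22714456 to 22721678), varied more between IVM MII libraries than between groups. It had 4.94, 17.0 and 1.80 CPM in IVM MII, 7.44 and 10.3 CPM in IVO MII, and 13.4 and 18.5 CPM in GV. The IVM MII libraries spread over 9.43-fold and overlapped both other groups, while both IVO MII libraries lay below both GV libraries. The log2 fold change was -0.16 for IVM MII against IVO MII (95% interval -1.99 to 1.66), -1.01 for IVM MII against GV and -0.85 for IVO MII against GV, and none was called. Without IVM MII replicate 2 the value against GV was -2.24 and was called (edgeR adjusted p = 0.0411), and without replicate 3 it was -0.56 (0.499).

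ATF4 and DDIT3, the transcription factor genes of the PERK branch, were both highest in GV, lower in IVM MII and lowest in IVO MII. ATF4 (chromosome 10, bases 11651699 to 11654714) had 12.5, 16.6 and 14.9 CPM in IVM MII, 8.61 and 6.90 CPM in IVO MII, and 34.7 and 27.7 CPM in GV, with no overlap between groups. Against GV it fell by 1.09 on the log2 scale in IVM MII (SE 0.37, edgeR adjusted p = 0.0474) and by 2.01 in IVO MII (SE 0.43, edgeR adjusted p = 0.0101). Between IVM and IVO MII the log2 fold change was 0.92 (95% interval 0.03 to 1.80, edgeR adjusted p = 0.222), not called. The IVM MII call against GV was the weakest of the called members: it was lost in 7 of 17 alternatives, among them each fit without 1 IVM MII library (edgeR adjusted p of 0.119, 0.0779 and 0.0531 without replicates 1, 2 and 3) or without GV replicate 1 or 2 (0.324 and 0.169). The IVO MII call was lost without GV replicate 1 (0.0951) and without GV replicate 2 (0.0553).

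DDIT3 (chromosome 11, bases 56497584 to 56503920) had 44.0, 37.2 and 28.6 CPM in IVM MII, 12.1 and 20.3 CPM in IVO MII, and 72.5 and 70.1 CPM in GV, again with no overlap between groups. It fell by 2.14 on the log2 scale in IVO MII against GV (SE 0.42, edgeR adjusted p = 0.00748), a call lost without GV replicate 1 (0.0518). In IVM MII against GV the log2 fold change was -0.96 (SE 0.36, edgeR adjusted p = 0.0671), which was not called but passed the threshold in 9 of 17 alternatives, DESeq2 and limma voom among them. Between IVM and IVO MII it was 1.18 (95% interval 0.30 to 2.05, edgeR adjusted p = 0.138), not called. DDIT3 shared 66 exon bases (2.88%) with MARS on the opposite strand.

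PPP1R15A, whose product directs a phosphatase to eIF2alpha and so reopens protein synthesis (chromosome 19, bases 49688449 to 49692507), was low in all MII libraries. It had 1.07, 3.59 and 5.26 CPM in IVM MII, 1.22 and 6.24 CPM in IVO MII, and 29.2 and 16.2 CPM in GV. The MII groups overlapped each other and both lay below GV. In IVM MII it fell by 2.77 on the log2 scale (SE 0.82, edgeR adjusted p = 0.0288), a call lost without IVM MII replicate 1 (0.0659), IVM MII replicate 2 (0.0729), GV replicate 1 (0.170) and GV replicate 2 (0.0572). In IVO MII the log2 fold change against GV was -2.60 (SE 0.94, edgeR adjusted p = 0.0685), not called. It was called in 7 of 17 alternatives, DESeq2 and limma voom among them. Without IVO MII replicate 1 it was -1.87 (0.213) and without IVO MII replicate 2 it was -4.22 and called (0.0350), in fits where the lone IVO MII library is assumed to vary like the other groups. Between IVM and IVO MII it was -0.17 (95% interval -2.03 to 1.68).

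HERPUD1, SEL1L and EDEM1 serve ER-associated degradation, which draws misfolded proteins out of the ER to the proteasome, and each had its own order of groups. HERPUD1, which encodes a membrane scaffold of the degradation complex (chromosome 20, bases 44949550 to 44962252), had 21.5, 24.4 and 8.95 CPM in IVM MII, 7.84 and 3.62 CPM in IVO MII, and 20.4 and 21.6 CPM in GV. IVM MII replicate 1 lay within the GV range, replicate 2 lay above it, and replicate 3 was close to the IVO MII libraries, though above both. The log2 fold change of IVM MII against IVO MII was 1.67 (95% interval 0.36 to 2.98, edgeR adjusted p = 0.152), with values of 1.13 (0.423, without IVO MII replicate 2) to 2.33 (0.123, without IVO MII replicate 1) when 1 library was left out. Against GV it was -0.20 in IVM MII (95% interval -1.42 to 1.02) and -1.88 in IVO MII (edgeR adjusted p = 0.0502). The last value lay at the threshold: 9 of 17 alternatives called it.

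SEL1L, which encodes the adaptor of the ubiquitin ligase HRD1 (chromosome 7, bases 146332602 to 146402979), was the most abundant member in MII oocytes. It had 385, 316.3 and 186.2 CPM in IVM MII, 180.7 and 97.1 CPM in IVO MII, and 70.5 and 93.6 CPM in GV. The groups did not overlap, but the lowest IVM MII library and the highest IVO MII library were close, as were the lowest IVO MII and the highest GV library. In IVM MII it rose against GV, with a log2 fold change of 1.85 ± 0.44 (SE; adjusted p = 0.0122 by edgeR), a call lost without GV replicate 1 (0.113) and without GV replicate 2 (0.0595). In IVO MII the value against GV was 0.76 (95% interval -0.26 to 1.78), 0.23 without IVO MII replicate 1, and 0.10 with library totals in place of TMM. Against IVO MII the value in IVM MII was 1.09 (95% interval 0.13 to 2.05, edgeR adjusted p = 0.190), and 0.62 to 1.61 when 1 library was left out.

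EDEM1, which encodes a lectin-like protein that hands misfolded glycoproteins to degradation (chromosome 2, bases 136067939 to 136100622), moved most among the called members. It had 18.1, 24.6 and 28.1 CPM in IVM MII, 79.4 and 44.9 CPM in IVO MII, and 3.17 and 2.47 CPM in GV, with no overlap between groups. It rose 22-fold in IVO MII against GV (4.46 ± 0.51 on the log2 scale, SE; adjusted p = 0.00210 by edgeR) and 8.36-fold in IVM MII (3.06 ± 0.46, SE; adjusted p = 0.00219 by edgeR). Both calls held in all 17 alternatives, with edgeR, limma or DESeq2 adjusted p-values up to 0.0200 in IVO MII and 0.0284 in IVM MII. Between IVM and IVO MII the log2 fold change was -1.40 (95% interval -2.29 to -0.50, edgeR adjusted p = 0.101), not called. IVO MII replicate 1 was the highest library and IVM MII replicate 1 the lowest of the MII libraries.

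**Figure D2:**
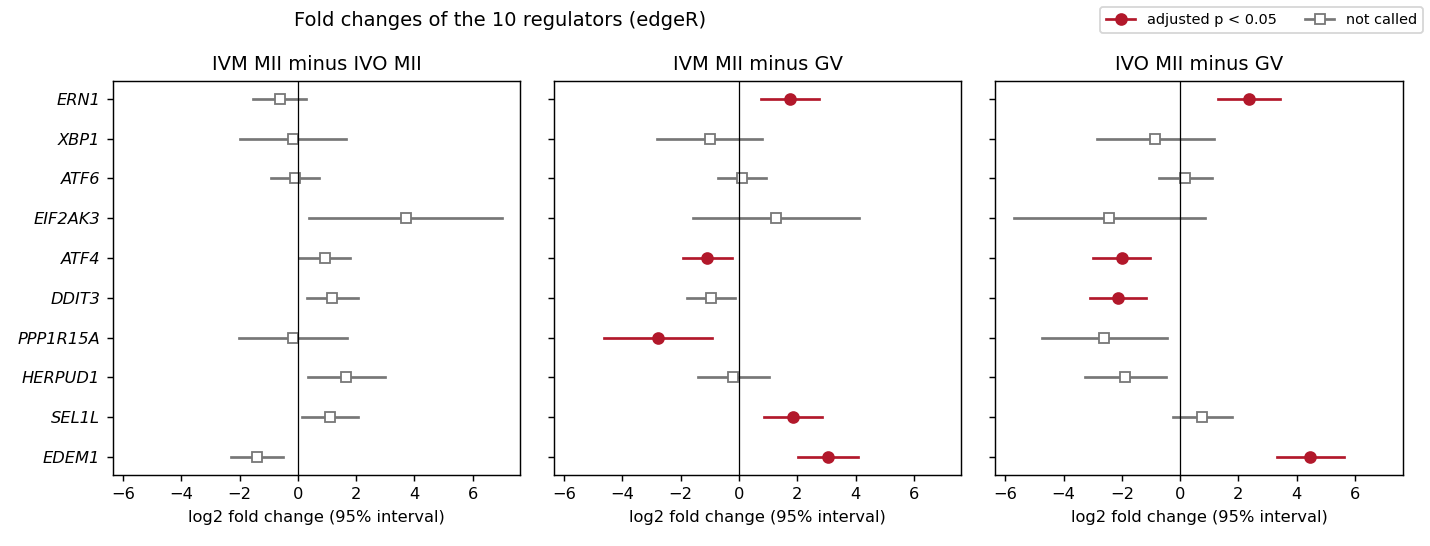
Log2 fold changes of the 10 regulators with 95% intervals from edgeR for IVM MII minus IVO MII, IVM MII minus GV and IVO MII minus GV, where filled red circles passed an adjusted p of 0.05 and open grey squares did not. EDEM1 at 3.06 and 4.46 and ERN1 at 1.75 and 2.37 lay to the right of 0 in both comparisons with GV, ATF4 at -1.09 and -2.01 lay to the left, and no member was called between IVM and IVO MII.

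Set side by side, oocytes matured in vitro and in vivo did not differ in any of the 10 regulators by edgeR with adjustment over all 16374 tested genes. The call rate was 0 of 10, against 1.47% of all tested genes (0.892% higher and 0.58% lower in IVM MII). At an unadjusted edgeR p under 0.05 there were 6 of 10 (ATF4, DDIT3, EIF2AK3, HERPUD1, SEL1L and EDEM1), against 21.1% of all tested genes, with EDEM1 lower and the other 5 higher in IVM MII. The libraries of both groups did not overlap for 6 of 10, against 33.8% of all tested genes (17.8% above and 16% below). These were ATF4, DDIT3, HERPUD1 and SEL1L, higher in IVM MII, and ERN1 and EDEM1, lower in IVM MII. DESeq2 called 3 members, DDIT3 at 1.16 (adjusted p = 0.0424), EIF2AK3 at 3.62 (0.0413) and EDEM1 at -1.46 (0.0154), in a test that called 2041 genes against 241 by edgeR. EIF2AK3 had only 9 and 1 counts in the IVO MII libraries. The number of members called by edgeR was 0 in each fit without 1 IVM MII library. Without IVM MII replicate 1 or 2, however, edgeR called 0 genes over the whole table, so these fits cannot speak for the members. Without IVM MII replicate 3 it called 1277 genes and 0 members. The median log2 fold change was 0.41 over the members and 0.00 over all tested genes. A p that misses the threshold does not show that the groups were alike.

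Against GV, 5 of 10 regulators were called in IVM MII, against 36.3% of all tested genes, with 3 up (18.5% of all tested genes were called up) and 2 down (17.8%). In IVO MII 4 of 10 were called, against 28.1% of all tested genes, with 2 up (14.6%) and 2 down (13.5%). At an unadjusted edgeR p under 0.05 there were 6 of 10 in each, against 47.5% of all tested genes in IVM MII and 42.1% in IVO MII. Counts of this size over 10 genes lie near the rate of the whole table and are no result about the members as a group. Both comparisons use the same GV libraries, so ERN1 and EDEM1 up and ATF4 down in both are not independent of each other. The libraries did not overlap for 6 of 10 in IVM MII against GV (69.1% of all tested genes, 31.5% above and 37.5% below) and for 9 of 10 in IVO MII against GV (72.8%, 32.0% above and 40.8% below). The median log2 fold change over the members was -0.06 in IVM MII, against -0.10 over all tested genes, and -1.36 in IVO MII, against -0.16. The fits without 1 GV library, which assume that the lone GV library varies like the other groups, left 1 called member in IVM MII (EDEM1) with either library left out, and 1 (EDEM1) or 2 (EDEM1 and DDIT3) in IVO MII without GV replicate 1 or 2.

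The direction of the called members was the same under every scaling tried, but its size was not. The median of all tested genes was -0.24 and -0.26 in IVM and IVO MII against GV with DESeq2's size factors in edgeR (RLE), -0.21 and -0.15 with upper quartile scaling, and -0.80 and -0.78 with library totals. Under library totals EDEM1 stood at 2.37 and 3.80, ERN1 at 1.04 and 1.75, and ATF4 at -1.80 and -2.65 in IVM and IVO MII. Under library totals 1608 of all tested genes were called up and 4170 down in IVM MII, and 1340 up and 3123 down in IVO MII, so the balance of directions against GV rests on the scaling.

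The members differed by transcript length, as did the whole table. PPP1R15A, ATF4, DDIT3, HERPUD1 and XBP1 had summed exon lengths of 1841 to 2506 bases, and each had a negative log2 fold change in both comparisons with GV. EIF2AK3, EDEM1, SEL1L, ERN1 and ATF6 had 4639 to 10351 bases, and all had positive values except EIF2AK3 in IVO MII. Over the 8288 tested genes shorter than 3000 bases the median log2 fold change was -0.60 in IVM MII and -0.73 in IVO MII against GV, with 12.8% and 9.36% called up and 24.3% and 19.1% called down. Over the 4981 tested genes of 4500 bases or more it was 0.51 in both, with 27.2% and 22.7% called up and 8.77% and 6.30% called down. Between IVM and IVO MII the medians were 0.05 and -0.06 for the same classes. In both comparisons EDEM1, ERN1 and SEL1L lay above the median of their class, ATF6 lay below it, and PPP1R15A, ATF4, DDIT3 and XBP1 lay below the median of theirs. HERPUD1 and EIF2AK3 lay above it in IVM MII and below it in IVO MII. The bounds of both classes were chosen after the values were seen, and the part of transcript length in these values was not tested.

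**Figure D3:**
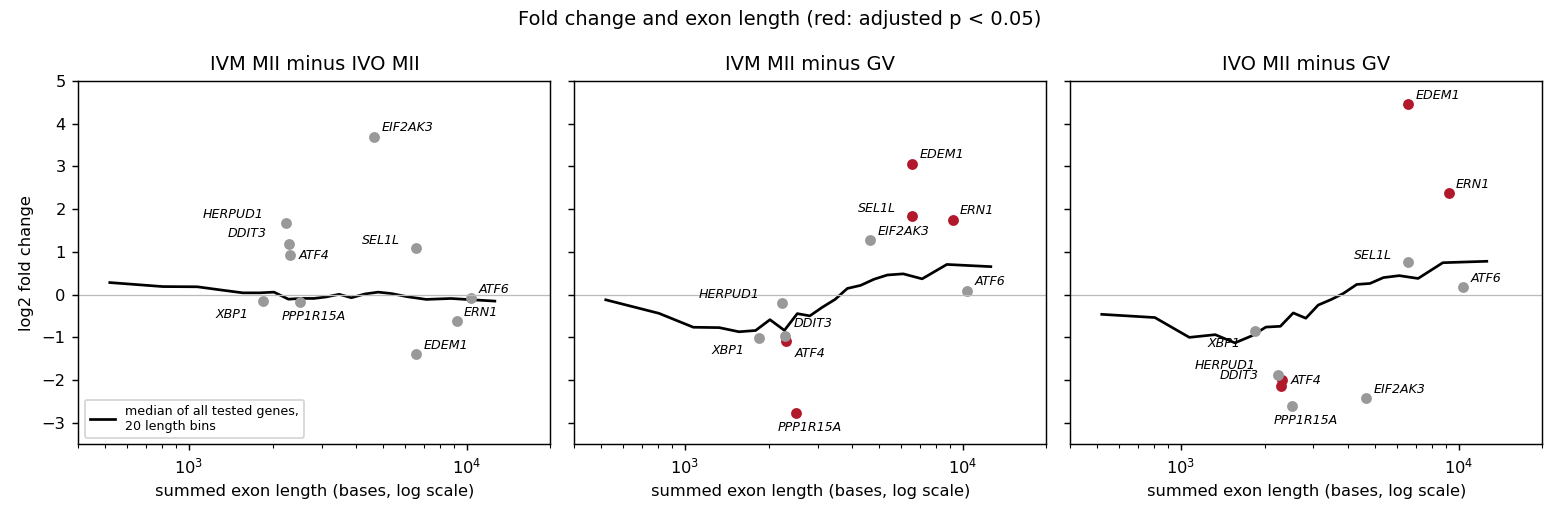
Log2 fold change of each regulator against its summed exon length on a log axis, for IVM MII minus IVO MII, IVM MII minus GV and IVO MII minus GV; red points passed an adjusted p of 0.05, and the black line joins the medians of all tested genes in 20 length bins. In both comparisons with GV the line climbs over the longer genes, and the 5 members of 1841 to 2506 bases all lie below 0.

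Levels per length, in CPM per kilobase of exon (RPKM), reordered the regulators between stages. In IVM MII SEL1L led with 45.0 ± 15.4 RPKM, followed by DDIT3 with 16 ± 3.36 and HERPUD1 with 8.16 ± 3.66 (SD, n = 3). In IVO MII SEL1L led with 21.1 ± 9.0 RPKM, followed by EDEM1 with 9.47 ± 3.71 and DDIT3 with 7.06 ± 2.54, the last pair within 1 SD of each other (SD, n = 2). In GV DDIT3 led with 31.1 ± 0.762 RPKM, followed by ATF4 with 13.5 ± 2.12 and SEL1L with 12.5 ± 2.48, which did not differ beyond their spread (SD, n = 2). EDEM1 ranked 6 of 10 in IVM MII, 2 in IVO MII and 8 in GV. EIF2AK3 was last in every group, at 0.688 ± 0.548 RPKM in IVM MII, 0.0536 ± 0.0640 in IVO MII and 0.286 ± 0.0569 in GV.

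Other genes of the pathway were followed in 5 lists, in which 0 members were called between IVM and IVO MII by edgeR with all libraries. DESeq2 called 6 chaperone genes, 4 translocon genes and 2 targets of ATF4 and CHOP, all higher in IVM MII, and 2 degradation genes, 1 higher and 1 lower. Over the whole table DESeq2 called 2041 genes, 1233 higher and 808 lower. Without IVM MII replicate 3 edgeR called 2 chaperone genes, both higher, 2 degradation genes and 3 translocon genes. In that fit it called 1277 genes over the whole table, 787 higher and 490 lower. Without IVO MII replicate 1 some genes of these lists were called, all higher. That fit leaves a lone IVO MII library and is not read as a result. At an unadjusted edgeR p under 0.05 there were 2 of 22 sensors, kinases and processing enzymes, 4 of 18 targets of ATF4 and CHOP, 8 of 25 ER chaperones and folding enzymes, 4 of 28 degradation genes and 6 of 23 translocon genes, against 21.1% of all tested genes. The chaperone list had the largest share: 21 of its 25 tested genes had a positive log2 fold change, with a median of 0.53, and the translocon list had 18 of 23 with a median of 0.75, against 0.00 over all tested genes. HSPA5, which encodes BiP, the chaperone that holds the sensors inactive, had 13.8, 131.9 and 22.7 CPM in IVM MII, 2.95 and 4.47 CPM in IVO MII, and 48.5 and 34.2 CPM in GV. All IVM MII libraries lay above both IVO MII libraries, and IVM MII replicate 2 stood far above its group. The log2 fold change of IVM MII against IVO MII was 3.91 (SE 1.01, edgeR adjusted p = 0.0836), and 2.29 without IVM MII replicate 2 (0.134). HSP90B1, the ER member of the HSP90 family, followed with 157.7, 146.4 and 62.8 CPM in IVM MII, 21.9 and 43.8 CPM in IVO MII, and 36.3 and 40.6 CPM in GV, and a value of 1.90 (SE 0.50, edgeR adjusted p = 0.0897). DNAJB9, an ER co-chaperone and XBP1 target, had 93.4, 91.1 and 43.8 CPM in IVM MII, 42.4 and 23.6 CPM in IVO MII, and 42.2 and 33.8 CPM in GV (1.21, SE 0.46, edgeR adjusted p = 0.181). For all 3 chaperones the IVM MII libraries lay above the IVO MII libraries, as they did for 17.8% of all tested genes. For DNAJB9 the gap was narrow (43.8 against 42.4 CPM). SYVN1 and ASNS, described below, overlapped between IVM and IVO MII. None of the chaperone differences was called by edgeR with all libraries. Other settings called HSPA5 in 5 of 17 (lowest adjusted p = 0.000162, with DESeq2), HSP90B1 in 4 (0.00625, with DESeq2) and DNAJB9 in 1 (0.0482, with the replicate block).

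**Figure D4:**
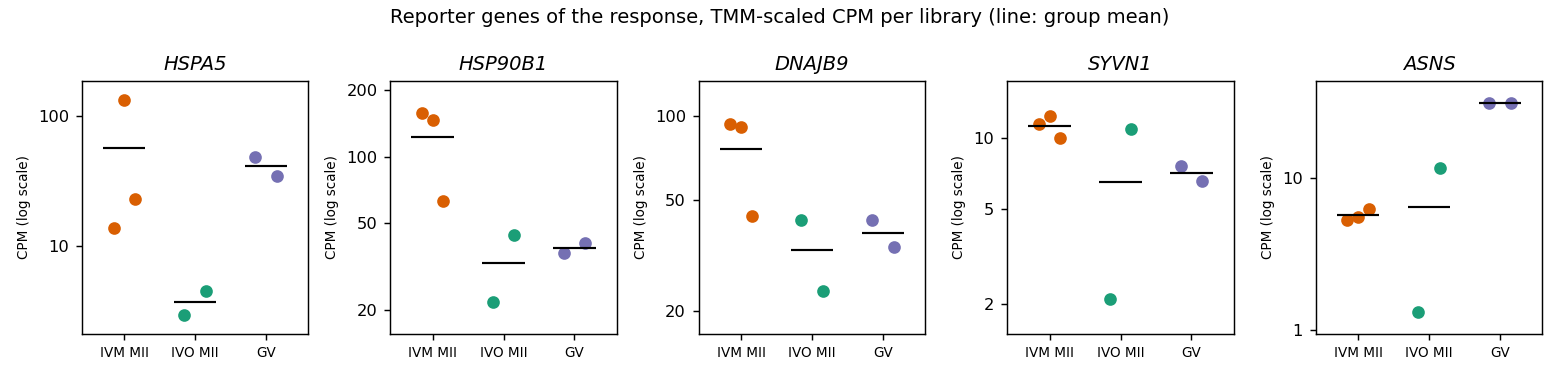
Level of 5 reporter genes of the response in every library, in TMM-scaled CPM on a log axis, with IVM MII (3 libraries), IVO MII (2) and GV (2) from left to right; points are libraries and lines are group means. HSPA5, HSP90B1 and DNAJB9 were higher in all IVM MII libraries than in both IVO MII libraries, and ASNS was at 30.9 CPM in both GV libraries and at 11.6 CPM or less elsewhere. SYVN1 and ASNS overlapped between IVM and IVO MII.

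Against GV, HSPA5 fell by 3.47 on the log2 scale in IVO MII (edgeR adjusted p = 0.0343), a call lost without IVO MII replicate 1 (0.155), IVO MII replicate 2 (0.0987), GV replicate 1 (0.0963) or GV replicate 2 (0.0632). In IVM MII it was at 0.44, and at -1.17 without IVM MII replicate 2. HSP90B1 rose in IVM MII by 1.67 (edgeR adjusted p = 0.0301), a call lost without IVM MII replicate 1 (0.0876) or 2 (0.0770), without GV replicate 1 (0.177) or 2 (0.137) and with library totals (0.173). In the chaperone list 4 of 25 rose and 4 fell in IVM MII, and 3 rose and 8 fell in IVO MII. Of all tested genes 18.5% were called up and 17.8% down in IVM MII, and 14.6% and 13.5% in IVO MII. SDF2, an ER luminal partner of chaperone complexes, had log2 fold changes of -4.02 and -4.51 in IVM and IVO MII, and CRELD2, an ER stress-inducible factor, -4.2 and -3.36, the last call lost without GV replicate 1 (0.0654). ERO1B, an oxidase of disulfide formation, rose by 2.73 in IVM MII. In IVO MII ERO1B was higher as well, at 26.8 and 27.1 CPM against 8.01 and 9.17 CPM in GV. DNAJC10, an ER disulfide reductase, rose by 2.01 in IVM MII, lost with library totals (0.0593) and without GV replicate 1 (0.117) or 2 (0.0869). CALR, which encodes the lectin chaperone calreticulin, fell by 2.30 in IVO MII, lost in 5 fits without 1 library (0.0581 to 0.153). DNAJC10 was also higher in IVO MII, at 32.6 and 25.5 CPM against 9.28 and 10.6 CPM in GV. CALR was also lower in IVM MII, at 9.49, 23.7 and 52.6 CPM against 118.7 and 93.5 CPM in GV. Under library totals 1 chaperone rose and 6 fell in IVM MII, and 0 rose and 9 fell in IVO MII. All tested genes then stood at 9.82% up and 25.5% down in IVM MII, and 8.18% and 19.1% in IVO MII.

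Among the targets of ATF4 and CHOP, 3 of 18 tested genes rose and 3 fell in IVM MII against GV, and 2 rose and 3 fell in IVO MII. The shares of all tested genes were 18.5% up and 17.8% down in IVM MII, and 14.6% and 13.5% in IVO MII. Under library totals 1 rose and 4 fell in IVM MII, and 2 rose and 4 fell in IVO MII. The shares were then 9.82% up and 25.5% down, and 8.18% and 19.1%. CHAC1, which encodes a glutathione-degrading enzyme induced through ATF4, was at 2.33 ± 1.90 CPM in IVM MII, 12.2 ± 12.3 in IVO MII and 325.9 ± 168.2 in GV. It fell by 7.11 on the log2 scale in IVM MII (SE 1.12, edgeR adjusted p = 0.00253) and had a log2 fold change of -4.74 in IVO MII (SE 1.2, edgeR adjusted p = 0.0201), the second call lost without IVO MII replicate 1 (0.0837) and GV replicate 1 (0.0679). WARS, the tryptophanyl-tRNA synthetase gene, had log2 fold changes of -2.55 and -3.55. ASNS, which encodes asparagine synthetase, had 5.26, 5.49 and 6.24 CPM in IVM MII, 1.32 and 11.6 CPM in IVO MII, and 30.9 and 30.9 CPM in GV. It fell by 2.45 in IVM MII (edgeR adjusted p = 0.0295), lost in each fit without 1 IVM MII library (0.0798, 0.0797 and 0.0554) or 1 GV library (0.105 and 0.0990), and was at -2.26 in IVO MII (0.0722), not called. MTHFD2, of mitochondrial one-carbon metabolism, went the other way, rising by 3.75 in IVM MII, and by 2.79 in IVO MII in a call lost without IVO MII replicate 1 (0.0603), GV replicate 1 (0.0911) and GV replicate 2 (0.0729). DDIT4, which encodes an inhibitor of mTORC1, rose by 2.38 in IVO MII, lost without GV replicate 2 (0.0867). DDIT4 was higher in IVM MII too, at 81.2, 70.3 and 65.5 CPM against 29.7 and 11.7 CPM in GV. ATF3 and TRIB3, stress-induced targets, were listed at 0 counts in all 7 libraries, and whether their transcripts were absent or went uncounted was not tested.

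Among the other sensors, kinases and processing enzymes, 5 of 22 rose and 2 fell in IVM MII against GV, and 6 rose and 1 fell in IVO MII. The shares of all tested genes were 18.5% up and 17.8% down in IVM MII, and 14.6% and 13.5% in IVO MII. RTCB, the ligase that rejoins XBP1 mRNA after IRE1 has cut it, was at 10.3 ± 4.40 CPM in IVM MII, 13.4 ± 4.44 in IVO MII and 232.1 ± 5.34 in GV. It fell by 4.50 on the log2 scale in IVM MII (SE 0.47, edgeR adjusted p = 0.00127) and by 4.11 in IVO MII (SE 0.55, edgeR adjusted p = 0.00229). PPP1CC, a catalytic subunit that PPP1R15A can bind, rose by 3.28 and 3.98. RTCB and PPP1CC kept these calls in all 17 alternatives. PPP1CB, another such subunit, rose by 2.26 in IVM MII, lost without GV replicate 1 (0.0737). PPP1R15B, which encodes the constitutive eIF2alpha phosphatase subunit, rose by 1.58 in IVM MII (edgeR adjusted p = 0.0451), a call lost in 11 of 17 alternatives (adjusted p up to 0.223 with library totals). In IVO MII the heme-regulated eIF2alpha kinase gene EIF2AK1 rose by 1.87, lost in 5 alternatives (0.0501 to 0.141), and CREB3L2, an ER-bound transcription factor gene, by 1.29, lost in 4 (0.0686 to 0.185). Under library totals 3 genes of the list rose and 5 fell in IVM MII, and 1 rose and 2 fell in IVO MII. All tested genes then stood at 9.82% up and 25.5% down in IVM MII, and 8.18% and 19.1% in IVO MII.

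In the degradation list 3 of 28 rose and 6 fell in IVM MII against GV, and 3 rose and 8 fell in IVO MII. UBE2J2, a ubiquitin-conjugating enzyme of the ER membrane, was at 3.44 ± 3.08 CPM in IVM MII, 5.29 ± 3.15 in IVO MII and 113.1 ± 10.7 in GV, and had log2 fold changes of -5.03 and -4.41 in IVM and IVO MII. AUP1, which recruits a conjugating enzyme, had -4.80 and -4.07, the second lost without IVO MII replicate 1 (0.0517), GV replicate 1 (0.0972) or GV replicate 2 (0.0645). DERL3, a derlin of the dislocation channel, had -2.37 and -3.56, each lost in 3 fits without 1 library (0.0531 to 0.117). ERLEC1, an ER lectin, rose by 2.30 in IVM MII, lost in 6 alternatives (0.0505 to 0.174). In IVO MII ERLEC1 overlapped GV. VIMP, the older name of the gene for selenoprotein S of the dislocation complex, fell by 2.96 in IVO MII (SE 0.36, edgeR adjusted p = 0.00210). VIMP was lower in IVM MII too, at 34.7, 46.5 and 50.5 CPM against 202.3 and 215.7 CPM in GV. SYVN1, which encodes HRD1, the ligase that SEL1L serves, had 11.4, 12.4 and 9.96 CPM in IVM MII, 2.09 and 10.9 CPM in IVO MII, and 7.59 and 6.57 CPM in GV. Its log2 fold changes were 0.79 for IVM MII against IVO MII, 0.67 for IVM MII against GV and -0.12 for IVO MII against GV, and none was called. Under library totals 0 genes of this list rose, and 11 fell in IVM MII and 9 in IVO MII. In the translocon list 8 of 23 rose and 3 fell in IVM MII, and 4 rose and 7 fell in IVO MII. SPCS2 of the signal peptidase rose by 2.53 and 2.55, and the signal recognition particle receptor gene SRPRB fell by 2.31 in IVM MII, lost without GV replicate 1 (0.0737) and GV replicate 2 (0.0601), and had a log2 fold change of -4.07 in IVO MII. In IVM MII SEC63, a translocon subunit, rose by 2.4, lost in 4 alternatives (0.0528 to 0.117), and SRP19, of the signal recognition particle, by 2.34, lost in 6 (0.0532 to 0.196). In IVO MII SEC63 had 83.9 and 62.8 CPM, against 22.1 and 27.2 CPM in GV, while SRP19 overlapped GV. In IVO MII SEC62, the partner of SEC63, rose by 2.17 and SRP14 fell by 2.96. Both moved the same way in IVM MII. SEC62 averaged 552.1 CPM in IVM MII, 511.9 CPM in IVO MII and 113.7 CPM in GV. For SRP14 these means were 63.5, 32.4 and 252.0 CPM. Under library totals 3 translocon genes rose and 5 fell in IVM MII, and 2 rose and 7 fell in IVO MII. The TMM counts of these lists stand against 18.5% and 17.8% of all tested genes called up and down in IVM MII, and 14.6% and 13.5% in IVO MII. Those under library totals stand against 9.82% up and 25.5% down in IVM MII, and 8.18% up and 19.1% down in IVO MII.

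**Figure D5:**
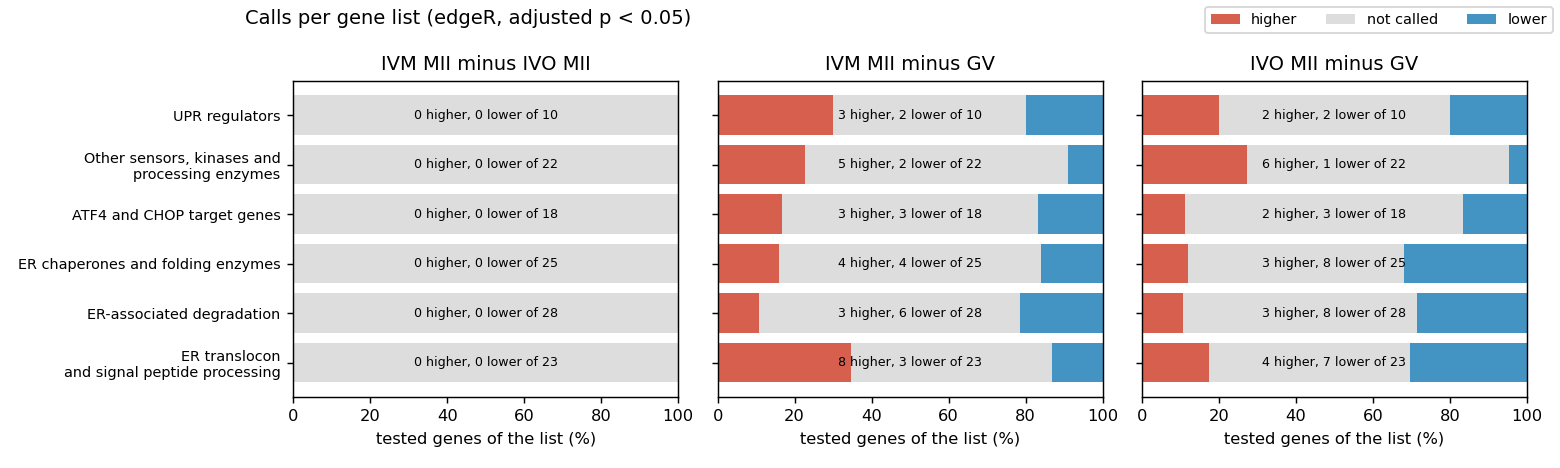
Share of the tested genes of each list that were called higher (red, left), not called (grey) or called lower (blue, right) by edgeR at an adjusted p of 0.05, for IVM MII minus IVO MII, IVM MII minus GV and IVO MII minus GV, with counts printed on the bars. No list held a call between IVM and IVO MII, and each list held calls in both directions against GV.

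Genes of like pattern were sought for the branch factors among the 7880 tested genes with a symbol and a mean of at least 5 CPM. Likeness was the root mean square difference of log2(CPM + 1) values, each centred on its own mean over the 7 libraries, so that 0 is an identical profile. Nearest to ATF4 were FANCF (0.15), PSMG2 (0.17) and HSPA8 (0.21). Nearest to ATF6 were TCEB3 (0.10), PLAGL2 (0.11) and ARMC8 (0.13). Nearest to XBP1 was TP53INP2 at 0.13, with 9.49, 26.0 and 4.40 CPM in IVM MII, 15.3 and 17.0 CPM in IVO MII, and 26.3 and 33.9 CPM in GV, ahead of AGFG1 (0.38) and C15H9orf153 (0.40). TP53INP2 was picked for its likeness to XBP1 over these same libraries, so its uneven IVM MII libraries follow from the choice. Among the members themselves ATF4 and DDIT3 were closest (0.38) and PPP1R15A and EDEM1 farthest apart (2.74).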

How the data were processed

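The authors deposited raw counts per gene for 7 libraries, not normalized. Trim Galore 0.6.7 and Bowtie2 2.4.5, with SAMtools 1.15.1, featureCounts 2.0.1 and DESeq2, are named per the submitters' processing notes. How strands and multi-mapping reads were handled, and the genome build, is not given here by labels or headers. Bowtie2 aligns without splicing, so reads over exon junctions may be missed or fall on intronless copies. Broken lines (10, of MACF1, NEB and TTN) were left out. Groups were taken from the labels' cell types.

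Counts were filtered (filterByExpr), scaled by TMM and tested with edgeR 4.0.16 (glmQLFit and glmQLFTest, default settings, two-sided) in R 4.3.3, with all 7 libraries in 1 fit. A gene was called at a Benjamini-Hochberg adjusted p under 0.05 over 16374 tested genes. All 10 members passed the filter. SEs come from the F statistic. The script was tested on simulated data. Limma 3.58.1 (voom), DESeq2 1.42.0 and the other alternatives are listed in the closing section. Python 3.11.15 with pandas 2.3.3 handled the tables. The exon lengths used for RPKM are those of the deposited table.

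Members and lists were chosen with earlier results of these data known. Named from each other list were, per comparison, up to 4 called genes of largest change whose higher group averaged 20 CPM or more and whose libraries did not overlap; every reporter (HSPA5, HSP90B1, DNAJB9, ASNS, TRIB3, SYVN1, ATF3) was named whatever its value.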

Additional observations from a re-analysis of the deposited data

How the results depend on the processing

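Counts of calls, and the fold changes of the members and of the other named genes, were recomputed under 17 alternatives, of which library totals in place of TMM was added after seeing the data. Members called between IVM and IVO MII numbered 3 with DESeq2 and 0 otherwise (0 to 0 without 1 library). Against GV they numbered 1 to 6 in IVM MII and 1 to 5 in IVO MII without 1 library. All genes called numbered 0 to 1277 for IVM against IVO MII without 1 library (0 without IVM MII replicate 1 or 2, 1277 without replicate 3), 2110 to 6716 for IVM MII against GV and 1484 to 5517 for IVO MII against GV. For IVM against IVO MII they numbered 731 with no filter on low counts, 2041 with DESeq2, 497 with limma voom, 774 with edgeR's newer fit (legacy = FALSE), 54 with only the 2 groups compared and 1238 with the replicate block, against 241.

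The deviations of same-numbered libraries from their group means had correlations of -0.234 to 0.353 over genes. In a group of 2 libraries the deviations mirror each other, so these correlations cannot decide whether libraries were paired. The numbers are those of the sample titles, and IVO MII replicate 2 bears another number in its alignment name. No pairing is stated in the labels, so the numbers were not read as pairs. With the replicate block, 0 members were called between IVM and IVO MII, 4 in IVM MII against GV and 6 in IVO MII against GV. The block also called 3 chaperone genes, 2 degradation genes and 2 translocon genes between IVM and IVO MII, among 1238 genes over the whole table. With the block ATF4 in IVM MII against GV was no longer called (edgeR adjusted p = 0.0997).

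Signs turned in small uncalled values, and the cause was not tested. Leaving out 1 library at a time, the lowest and highest log2 fold changes of IVM against IVO MII were -0.30 and 0.02 for ATF6, -1.40 and 0.30 for XBP1, -0.91 and 1.36 for PPP1R15A and -1.03 and 2.01 for ASNS. For IVM MII against GV they were -0.16 and 0.36 for ATF6, -0.46 and 0.09 for HERPUD1, and -1.17 and 0.88 for HSPA5. For IVO MII against GV they were -0.07 and 0.44 for ATF6, -0.82 and 0.18 for HSP90B1, -0.7 and 0.15 for DNAJB9, and -1.77 and 0.61 for SYVN1. With the replicate block XBP1 became 0.13 and ASNS 0.12 for IVM against IVO MII, and ATF6 -0.10 and HERPUD1 0.13 for IVM MII against GV. With limma voom ASNS became 0.39 for IVM against IVO MII and HSPA5 -0.21 for IVM MII against GV. For IVM MII against GV, ATF6 became -0.05 with RLE and with DESeq2, -0.02 with upper quartile scaling and -0.04 with at least 50 counts in 2 libraries. With library totals ATF6 became -0.62 in IVM MII and -0.43 in IVO MII, and HSPA5 -0.23 and SYVN1 -0.05 in IVM MII, all against GV. Of the 3 genes nearest to XBP1 in pattern, 2 were the same with a pseudocount of 0.5. Ranks, overlaps, medians and count ratios were not recomputed under the alternatives.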

Other observations

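Ratios of counts between members within a library do not depend on how libraries are scaled. These pairs were chosen after their values were seen, and no test was run. EDEM1 had 0.412, 0.661 and 0.982 counts per DDIT3 count in IVM MII, 6.57 and 2.21 in IVO MII, and 0.0437 and 0.0352 in GV. The groups did not overlap, and the IVM MII libraries lay between the other groups. EDEM1 had 0.0471, 0.0777 and 0.151 counts per SEL1L count in IVM MII, 0.439 and 0.463 in IVO MII, and 0.0450 and 0.0264 in GV. By that ratio of degradation genes both IVO MII libraries stood apart, and the lowest IVM MII library was close to GV. DDIT3 had 3.52, 2.25 and 1.93 counts per ATF4 count in IVM MII, 1.4 and 2.94 in IVO MII, and 2.09 and 2.53 in GV, and all groups overlapped.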
